A study of Homo sapiens with 160 samples.

Results

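CRISPLD2, cysteine-rich secretory protein LCCL domain containing 2, was followed through a study of BEAS-2B cells, an immortalised line derived from normal human bronchial epithelium. The gene was taken by its symbol and is 1 of the 29273 genes measured. It was put forward as a known asthma-related glucocorticoid gene and for its rise with indacaterol at 2 h, so that rise is described here and not tested. The protein is secreted and belongs to the CAP superfamily. It is known as a glucocorticoid-induced gene of airway cells that can restrain cytokine release, and its rodent counterpart was first found as a late gestation lung gene.

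The agents act through different pathways. Mometasone furoate is an inhaled glucocorticoid. It binds the glucocorticoid receptor NR3C1, which moves to the nucleus and acts on genes from DNA elements that may lie near or far from the promoter. Indacaterol is a long-acting inhaled bronchodilator, which raises cyclic AMP and so activates protein kinase A and the transcription factor CREB. Carbachol is an agonist of muscarinic acetylcholine receptors, of which CHRM3 is the main form that contracts airway smooth muscle.

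Confluent cells were kept without serum overnight and then given mometasone (100 nM), indacaterol (100 nM), carbachol (10 µM), each pair of these agents, all 3 agents, or vehicle (labelled NS), for 1, 2, 6 or 18 h. The doses of the agents inside the combinations are not labelled separately. Of 160 samples 150 were used, which gave 24 groups of 5 libraries, 6 groups of 4 and 2 groups of 3 (mometasone, and all 3 agents, both at 18 h). The labels number the replicates but do not say that each came from its own culture. The p-values here therefore cover the scatter of these samples alone, and part or all of it may be technical.

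Values are a normalised signal per gene and library, called TPM by the authors, whose columns summed to between 847289 and 1498420, and the depth is unknown. Between 12521 and 13239 genes had a value of at least 1 in a library. Mitochondrial genes took 5.88% to 28.3% of the signal and over 20% in 6 libraries, all of them replicate 1. Epithelial markers were present in part. KRT8, KRT17 and KRT18, keratins of epithelial cells, had medians of 314, 701 and 351 over the libraries, but EPCAM, KRT5, KRT14 and KRT19 had medians of 0.23, 0.585, 0.24 and 0.395, and CDH1, the epithelial cadherin, had a median of 3.27. Of the 8 mesenchymal markers 5 had medians of 10 or more, among them VIM, FN1 and COL1A1 at 1532, 639 and 634, while COL1A2, COL3A1 and PDGFRA had medians of 1.615, 1.345 and 0.24. Of the 4 endothelial markers 4 had medians below 1, and of the 4 leukocyte markers 3 did.

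In GENCODE annotation of GRCh38, CRISPLD2 lies on the plus strand of chromosome 16, from 84819984 to 84920768. It has 11 annotated transcripts, of which 7 are protein coding. Transcript ENST00000262424.9 has 15 exons and 4586 bases, of which 1491 are coding and 3095 lie in UTRs. The antisense genes AC025280.3 and AC025280.2 and the sense-intronic gene AC025280.1 overlap it, and since use of strand is not given in the sources used here, reads of these genes and of CRISPLD2 cannot be told apart. The deposited values are per gene, so the transcripts are not resolved.

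The promoter is shown because mometasone and indacaterol, which both moved the gene, act through factors with known DNA elements. The sequence is from RefSeq (GRCh38.p14) and covers the 250 bases before the annotated start, on the plus strand at chr16:84819735-84819984, with the start at 84819985. Capitals mark GC boxes (GGGCGG or its reverse complement).
CRISPLD2 promoter: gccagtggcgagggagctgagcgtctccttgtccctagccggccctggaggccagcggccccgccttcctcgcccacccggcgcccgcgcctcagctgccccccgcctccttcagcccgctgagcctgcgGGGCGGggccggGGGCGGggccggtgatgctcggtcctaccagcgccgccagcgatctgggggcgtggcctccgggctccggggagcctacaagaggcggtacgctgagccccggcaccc

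This window is rich in G and C, at 77.6% against a median of 58.0% over 35116 RefSeq promoters cut to the same length, and it holds 27 CpG dinucleotides against a median of 11. Both strands were searched for 7 short motifs. The GC box, bound by Sp1-type factors, occurred at 2 places, whose first bases lie 120 and 108 bases before the start, and 42.6% of all promoters hold at least 1. The cyclic AMP response element TGACGTCA was not in the window (held by 1.65% of promoters), nor was the shorter TGACG (21.2%), which is part of it. The glucocorticoid element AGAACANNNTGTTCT (0.00285%) and its left arm AGAACA (12.4%), which overlaps it, were not in it either. TATAAA (10.7%) and CACGTG (6.34%) were also not found. A missing match says only that these letters are not within these 250 bases.

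The level of CRISPLD2 was low in vehicle and carbachol cells at every time, rose with mometasone or indacaterol, and was highest where both were given. In these bulk libraries fewer expressing cells and less RNA per cell cannot be told apart. Over the 150 libraries it ran between 0.29 and 51.49, and 35 libraries lay below 1. The 6 highest group means all belonged to cells with indacaterol, 4 of them with mometasone as well. They were 47.1 ± 5.79 (mometasone with indacaterol, 2 h), 45.0 ± 7.43 (all 3 agents, 2 h), 37.3 ± 2.64 (all 3 agents, 6 h), 33.5 ± 5.44 (mometasone with indacaterol, 6 h), 23.6 ± 3.36 (indacaterol, 2 h) and 21.9 ± 4.23 (indacaterol with carbachol, 2 h; SD, n = 5 each). The lowest was 0.702 ± 0.119 in carbachol cells at 6 h (SD, n = 5). With the 32 groups in order of their means, 30 of the 31 pairs of neighbours overlapped in their libraries. The exception was mometasone with carbachol at 18 h (lowest library 1.88), directly above indacaterol with carbachol at 18 h (highest library 1.74).

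**Figure D1:**
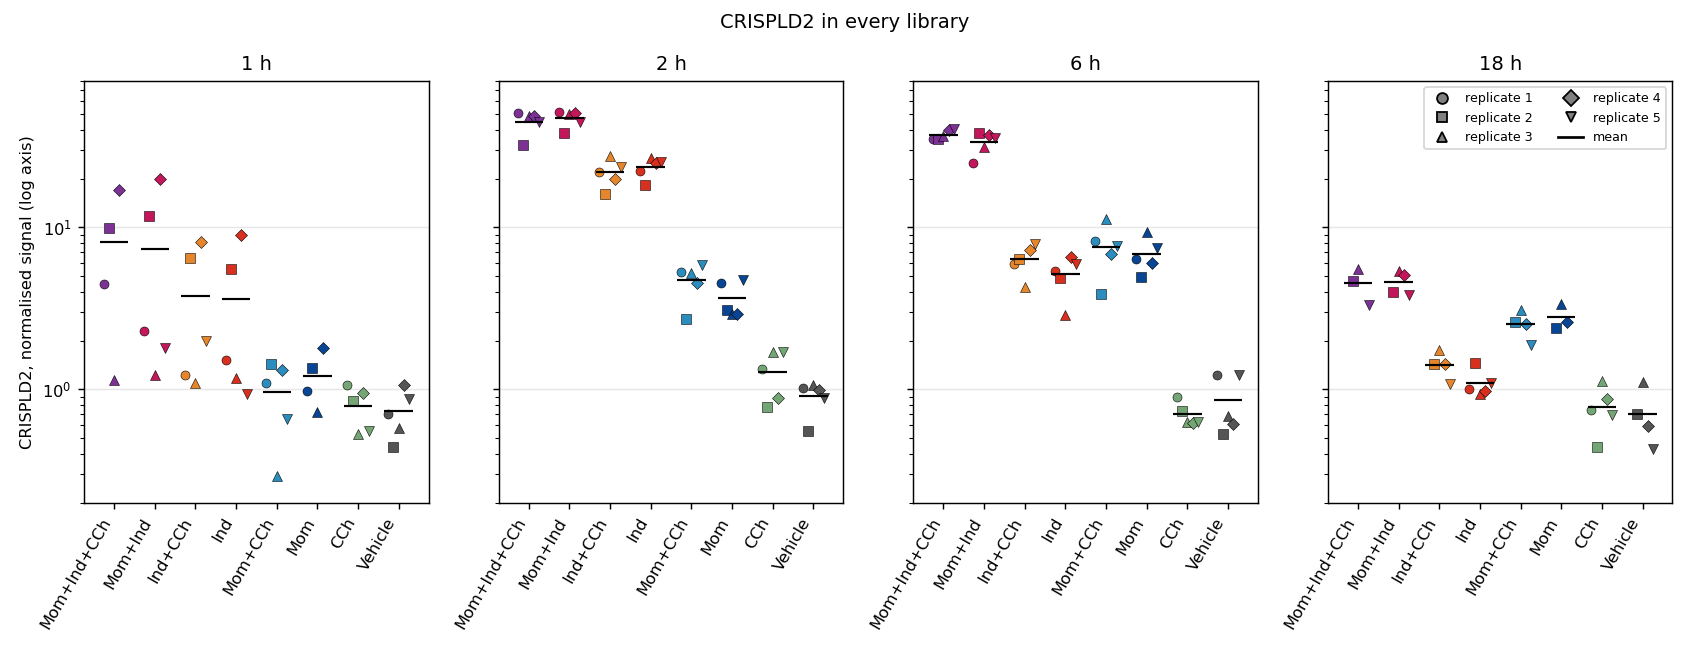
CRISPLD2 signal (log axis) in each of the 150 libraries, by treatment (Mom, mometasone; Ind, indacaterol; CCh, carbachol) and time; marker shapes are replicate numbers and black lines are means. At 2 h and 6 h the libraries with mometasone and indacaterol lie between 25.03 and 51.49, and vehicle libraries between 0.53 and 1.23.

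The level in vehicle cells stayed low at all 4 times. Vehicle libraries, in order of replicate number, had 0.70, 0.44, 0.58, 1.06 and 0.87 at 1 h. The 2 h values were 1.02, 0.55, 1.07, 0.99 and 0.89. At 6 h they had 1.22, 0.53, 0.68, 0.61 and 1.23, and at 18 h replicates 2 to 5 had 0.70, 1.11, 0.59 and 0.43. Vehicle means at 2, 6 and 18 h all lay within the range of the 1 h libraries. In limma, on log2(value + 1) and with Benjamini-Hochberg adjustment over the 14827 genes tested, vehicle cells at 2, 6 and 18 h differed from those at 1 h by 0.14, 0.09 and -0.02 (adjusted p = 1, 0.95 and 0.997). These comparisons called 0.0135%, 0.324% and 0.121% of the genes.

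The first question was what the glucocorticoid alone did. CRISPLD2 rose with mometasone at 2, 6 and 18 h and was highest at 6 h. At 1 h mometasone libraries had 0.97, 1.35, 0.72 and 1.80, against 0.70, 0.44, 0.58, 1.06 and 0.87 in vehicle libraries, and the groups overlapped. At 2 h they had 4.52, 3.10, 2.93, 2.90 and 4.74, against at most 1.07 in vehicle libraries. At 6 h they had 6.35, 4.93, 9.37, 5.99 and 7.46, against at most 1.23 in vehicle libraries. At 18 h the 3 mometasone libraries had 2.39, 3.37 and 2.61, against at most 1.11 in vehicle libraries.

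At 2, 6 and 18 h every mometasone library was thus above every vehicle library, and the ratio of the group means was 4.02, 7.99 and 3.94. The limma changes, whose scale of log2(value + 1) makes changes of low values look smaller, were 0.34, 1.27, 2.07 and 1.16 at 1, 2, 6 and 18 h. Their adjusted p-values in limma were 0.993, 0.00552, 5.6e-08 and 0.0323, while 0.472%, 1.99%, 9.61% and 9.1% of all tested genes were called in these comparisons. The 18 h call was lost when any 1 of the replicate numbers was left out, with adjusted p between 0.056 and 0.115. Replicate 1 has no library in either 18 h group, so leaving it out changed only the pooled spread and the adjustment over genes. The 2 h call was lost without replicate 1 (adjusted p = 0.0864) or replicate 5 (0.0867). Exact permutation tests (two-sided) gave p = 0.0873 for 1 h, 0.00794 for both 2 h and 6 h, and 0.0286 for 18 h. The last 3 are the smallest that these group sizes allow.

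The mometasone effect itself changed with time. It was larger at 6 h than at 1 h by 1.73 on the log2 scale (limma, SE 0.453, adjusted p = 0.011), a comparison that called 2.92% of genes. This call was lost without replicate 1 (1.77, adjusted p = 0.0702) or replicate 3 (1.51, 0.0826). Between 6 h and 18 h the effect differed by -0.91 (SE 0.487, adjusted p = 0.709), in a comparison that called 0.654% of genes.

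With indacaterol alone the mean level was highest at 2 h and lower at the later times. This course is measured from the value for which the gene was put forward, so it is a description. Tests of such a change on other libraries are given further below. At 2 h, the time for which the gene was put forward, indacaterol libraries had 22.43, 18.28, 26.74, 25.04 and 25.45, against 1.02, 0.55, 1.07, 0.99 and 0.89 in vehicle libraries. The means were 23.6 ± 3.36 in indacaterol cells and 0.904 ± 0.209 in vehicle cells (SD, n = 5 each), a ratio of 26.1. The change on the log2(value + 1) scale was 3.69 (95% interval 3.07 to 4.30), and 3.91% of genes were called in this comparison, from which nothing is read for CRISPLD2.

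At 6 h the indacaterol libraries had 5.35, 4.90, 2.87, 6.60 and 5.91, against 1.22, 0.53, 0.68, 0.61 and 1.23 in vehicle libraries. The groups still did not overlap, and the mean was 6.00 times that of vehicle cells. This was a log2 change of 1.71 (SE 0.311, limma adjusted p = 4.7e-05), with 1.74% of genes called. At 18 h indacaterol libraries had 1.01, 1.45, 0.94, 0.98 and 1.10, against 0.70, 1.11, 0.59 and 0.43 in vehicle libraries. The groups overlapped, the change was 0.31 (95% interval -0.35 to 0.96, limma adjusted p = 1), and 0.202% of genes were called.

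**Figure D2:**
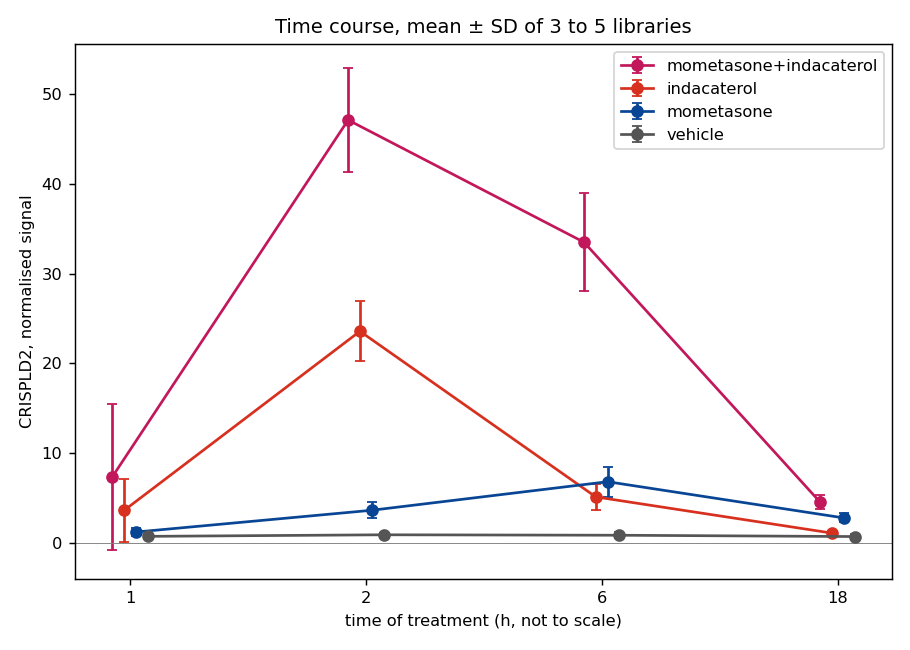
Mean CRISPLD2 signal (error bars, SD of 3 to 5 libraries) against time of treatment for mometasone with indacaterol, indacaterol, mometasone and vehicle. The indacaterol mean is 23.6 at 2 h and 5.13 at 6 h, while the mometasone mean is 3.64 at 2 h and 6.82 at 6 h.

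At 1 h the indacaterol libraries were far apart. They had 1.51, 5.55, 1.18, 8.92 and 0.93 for replicates 1 to 5, against 0.70, 0.44, 0.58, 1.06 and 0.87 in vehicle libraries, so that replicates 2 and 4 were high and replicate 5 lay within the vehicle range. Each of the 5 was higher than the vehicle library of the same number. The limma change was 1.11 (adjusted p = 0.0391, 1.4% of genes called) and the exact permutation p was 0.0159. This call rests on the pooled spread: with the 1 h libraries fitted alone the adjusted p was 1. It was also lost without replicate 1 (adjusted p = 0.0804), 2 (0.953) or 4 (0.534).

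The same replicates were high in every 1 h group that held indacaterol. Replicates 2 and 4 had 9.94 and 16.97 with all 3 agents, 11.73 and 19.74 with mometasone and indacaterol, and 6.45 and 8.09 with indacaterol and carbachol. The other replicates of those groups lay between 1.10 and 4.47. Without indacaterol the 1 h libraries stayed between 0.29 and 1.80. There too replicates 2 and 4 were the highest with mometasone (1.35 and 1.80, against 0.97 and 0.72 in replicates 1 and 3) and with mometasone and carbachol (1.44 and 1.31, against 0.29 to 1.09 in replicates 1, 3 and 5), though not in vehicle or carbachol libraries.

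Other genes moved with the same replicate numbers at 1 h, and they were chosen for mention after their values were seen. NR4A3, an orphan nuclear receptor induced by cyclic AMP, had 60.35 and 73.71 in indacaterol replicates 2 and 4, and 11.16, 17.09 and 15.67 in replicates 1, 3 and 5, against 0.30 to 0.50 in vehicle libraries. PDE10A, a phosphodiesterase of cyclic AMP and cyclic GMP, had 99.14 and 112.00 in indacaterol replicates 2 and 4, and 51.07, 37.49 and 72.39 in replicates 1, 3 and 5. TSC22D3, a glucocorticoid-induced leucine zipper protein, had 207.55 and 245.66 in mometasone replicates 2 and 4, and 53.67 and 76.92 in replicates 1 and 3, against 5.37 to 7.59 in vehicle libraries.

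Not every early gene did so. IL6, an inflammatory cytokine, had 53.62 and 69.50 in indacaterol replicates 2 and 4, and 55.69, 60.88 and 58.27 in replicates 1, 3 and 5. DUSP1, a phosphatase of MAP kinases, had 359.45 and 367.01 in indacaterol replicates 2 and 4, below the 501.42, 698.09 and 475.34 of replicates 1, 3 and 5. What set replicates 2 and 4 apart at 1 h was not tested.

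**Figure D3:**
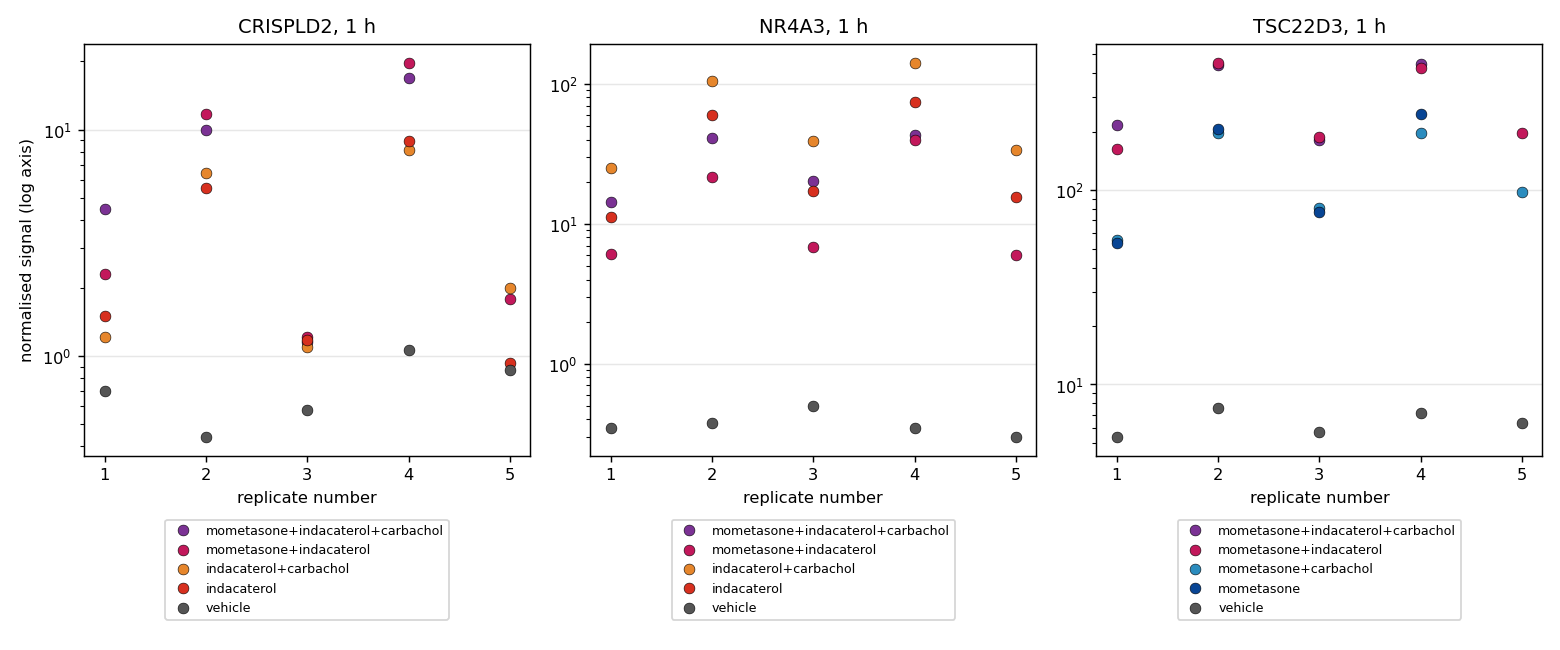
Signal at 1 h (log axis) of CRISPLD2, NR4A3 and TSC22D3 by replicate number, in libraries with the agent that raises each gene and in vehicle libraries (1 colour per treatment). In the indacaterol groups CRISPLD2 lies between 5.55 and 19.74 in replicates 2 and 4, and between 0.93 and 4.47 in replicates 1, 3 and 5.

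The second question was whether the agents together gave more than either alone. CRISPLD2 was higher with both mometasone and indacaterol than with either at 2 and 6 h, with no overlap between libraries. At 1 h libraries with both agents had 2.30, 11.73, 1.22, 19.74 and 1.79, against 0.44 to 1.06 in vehicle libraries. At 2 h they had 51.49, 38.00, 50.30, 51.12 and 44.76, where indacaterol alone reached 26.74, mometasone alone 4.74 and vehicle 1.07. At 6 h they had 25.03, 38.37, 31.29, 37.06 and 35.80, where indacaterol alone reached 6.60, mometasone alone 9.37 and vehicle 1.23. At 18 h they had 4.01, 5.37, 5.05 and 3.84, where indacaterol alone reached 1.45, mometasone alone 3.37 and vehicle 1.11.

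Against vehicle, the ratio of means for both agents was 10.1, 52.1, 39.2 and 6.46 at 1, 2, 6 and 18 h. The limma changes were 1.70, 4.66, 4.22 and 1.71 (adjusted p = 2.2e-05, 1.1e-26, 1.2e-23 and 6.8e-05), and 2.44%, 7.65%, 17.7% and 13% of genes were called. With the 1 h libraries fitted alone, the 1 h change lost its call (adjusted p = 0.144).

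Indacaterol added to mometasone raised the gene at 1, 2 and 6 h. The means at 2 h were 47.1 with both agents and 3.64 with mometasone, and at 6 h they were 33.5 with both agents and 6.82 with mometasone. The limma changes were 1.36, 3.39, 2.15 and 0.55 at 1, 2, 6 and 18 h (adjusted p = 0.0065, 4.2e-17, 6.1e-08 and 0.986), while 1.44%, 4.73%, 3.14% and 0.175% of genes were called. At 1 h the groups overlapped and the exact permutation p was 0.127, and the limma call was lost without replicate 2 (adjusted p = 0.36) or 4 (0.242). At 18 h the 4 libraries with both agents (at least 3.84) all lay above the 3 with mometasone (at most 3.37), and the exact permutation p was 0.0286, the smallest this size allows.

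Mometasone added to indacaterol raised the gene at 6 and 18 h. The changes were 0.60, 0.97, 2.51 and 1.40 on the log2 scale. The 2 h value shares the indacaterol libraries for which the gene was put forward and is a description. In limma the adjusted p-values for 1, 6 and 18 h were 1, 4.5e-11 and 0.000864, and 1.14%, 11.5% and 10.5% of genes were called. As a ratio of means, cells with both agents had 2.03 times the level of indacaterol cells at 1 h, 2.00 times at 2 h and 6.54 times at 6 h. At 1 h each of the 5 libraries with both agents was above the indacaterol library of the same replicate number. The 1 h change was not called by limma with the replicate block either.

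On the deposited scale the joint rise exceeded the sum of the single rises, given as a description, while on the log scale no departure from additive log effects passed the test. At 6 h the mean rise over vehicle was 32.7 with both agents, against 5.97 with mometasone and 4.27 with indacaterol, so that the joint rise was 3.19 times the sum of 10.2. Taken by replicate number, the joint rise was above the sum in 5 of 5 at 6 h, by 22.4 ± 5.52 (SD, n = 5), and in 5 of 5 at 2 h, by 20.8 ± 4.37 (SD, n = 5). At 2 h the joint rise was 1.82 times the sum. At 1 h it was above the sum in 3 of 4 replicate numbers, with a lowest excess of -0.1, and at 18 h in 3 of 3. Libraries of the same number did not deviate together in every comparison with vehicle at 2 and 6 h, so this matching is by label only.

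On the log2(value + 1) scale the interaction of mometasone and indacaterol was 0.25, 0.44 and 0.25 at 1, 6 and 18 h (limma adjusted p = 1 for each, to 3 digits), with 0.0742%, 0.216% and 0.0674% of genes called, and -0.30 at 2 h, given as a description. The 6 h sign depends on the pseudocount, since with 0.1 in place of 1 it was -0.18. At 6 h the level with both agents was 39.2 times that of vehicle, and the product of the single ratios was 47.9.

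The level at 6 h, as a share of that at 2 h, was smaller with indacaterol alone than with mometasone present. With indacaterol the mean at 6 h was 21.7% of that at 2 h, and with indacaterol and carbachol it was 29.1%. With both mometasone and indacaterol it was 71.1%, and with all 3 agents 82.9%. With mometasone it was 187%. By 18 h the mean with both agents was 13.6% of its 6 h value, and the mean with mometasone alone was 40.9% of its own.

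Tests of this difference were added after the values were seen, on libraries other than those for which the gene was put forward. The effect of mometasone on cells with indacaterol and carbachol was larger at 6 h than at 2 h by 1.39 (SE 0.44, limma adjusted p = 0.0828, 1.93% of genes called). The effect of indacaterol on carbachol cells differed by -1.24 between these times (SE 0.44, adjusted p = 0.229, 1.36% of genes called). In a limma fit with a block by replicate number shared over all times, the change of the mometasone effect passed the test (1.39, adjusted p = 0.0281). The numbers pair these libraries within 2 h and within 6 h, but their pairing across the times was not checked. Neither passed in the fit of all groups without the block, and both did in a fit of the compared groups (adjusted p = 0.000976 and 0.00512), which leaves out the widely spread 1 h libraries.

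The third question was whether carbachol changed the gene. Carbachol libraries had 1.07, 0.85, 0.53, 0.95 and 0.55 at 1 h and 1.34, 0.78, 1.69, 0.89 and 1.69 at 2 h. They had 0.90, 0.73, 0.63, 0.62 and 0.63 at 6 h and 0.75, 0.44, 1.12, 0.87 and 0.69 at 18 h. The vehicle libraries overlapped them at every time. Against vehicle the changes were 0.05, 0.24, -0.11 and 0.06 (limma adjusted p = 1 each), and 0.0809%, 0.027%, 0% and 0.00674% of genes were called. At 1 h and 18 h the sign is not stable, since it turned negative (-0.01 to -0.03) on leaving out some replicates.

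Averaged over the 4 backgrounds, the log2 difference with carbachol was 0.07, 0.16, 0.11 and 0.03 at 1, 2, 6 and 18 h (limma adjusted p = 1 each). The 2 h average leaves out the indacaterol background, whose libraries are among those for which the gene was put forward. The widest 95% interval was -0.20 to 0.51, at 2 h. In this comparison 0.189%, 0.0809%, 0% and 0% of genes were called. At an unadjusted p below 0.05, limma counted 124 of 14827 genes for carbachol against vehicle at 6 h, and 275 and 150 for the averaged effect at 6 and 18 h. For the averaged effect at 1 and 2 h the counts were 509 and 355. A fraction of 0.05 would be looked for if no gene changed. Each count lies below that, so none is read as a response to carbachol, and none as the absence of a response. CHRM3, the muscarinic receptor named above, had means between 0.76 and 1.64 in the groups with mometasone, indacaterol, both or vehicle. In the groups with carbachol its means lay between 0.72 and 1.82. Whether its level bears on the carbachol result was not tested.

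With carbachol present, the same pattern was measured in separate libraries. At 2 h indacaterol with carbachol gave 21.99, 16.16, 27.53, 19.97 and 23.70, against 1.34, 0.78, 1.69, 0.89 and 1.69 in carbachol libraries. The groups lay far apart, and the ratio of means was 17.1. At 6 h they had 5.92, 6.38, 4.31, 7.28 and 7.89, against at most 0.90 in carbachol libraries. The log2 differences for indacaterol added to carbachol were 1.15, 3.33, 2.09 and 0.45 (limma adjusted p = 0.0115, 1.7e-16, 2.1e-07 and 1), and 6.63%, 4.14%, 2.06% and 0.148% of genes were called. The 1 h call was lost without replicate 2 (adjusted p = 0.173) or 4 (0.118) and with the 1 h libraries fitted alone (0.248). At 18 h the exact permutation p was 0.0238, with the group ranges overlapping.

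Mometasone with carbachol gave 1.09, 1.44, 0.29, 1.31 and 0.66 at 1 h and 5.27, 2.73, 5.25, 4.56 and 5.89 at 2 h. It gave 8.28, 3.90, 11.27, 6.85 and 7.62 at 6 h, and 2.59, 3.10, 2.53 and 1.88 at 18 h. From 2 h on, every one of these libraries was above the carbachol libraries of the same time. The log2 differences for mometasone added to carbachol were 0.10, 1.32, 2.28 and 0.99 (limma adjusted p = 0.868, 0.00302, 2.1e-09 and 0.0342), with 0.816%, 2.2%, 10.1% and 10.4% of genes called. The 18 h call was lost without replicate 1, 2, 3 or 5, with adjusted p between 0.0645 and 0.183.

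With all 3 agents the libraries had 51.01, 32.32, 48.51, 48.40 and 44.69 at 2 h and 34.95, 34.85, 36.46, 39.86 and 40.32 at 6 h. Those with indacaterol and carbachol reached 27.53 at 2 h and 7.89 at 6 h, and those with mometasone and carbachol 5.89 and 11.27. At 18 h the 3 libraries with all agents had 4.66, 5.57 and 3.33. Each was above the indacaterol with carbachol libraries (1.44, 1.74, 1.43 and 1.08) and above the mometasone with carbachol libraries.

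For indacaterol added to mometasone with carbachol, the log2 differences were 1.86, 3.02, 2.22 and 0.64 (limma adjusted p = 1.6e-05, 3.0e-14, 2.1e-08 and 1), and 2.4%, 4.42%, 3.39% and 0.175% of genes were called. The 1 h call was lost with the 1 h libraries fitted alone (adjusted p = 0.137). For mometasone added to indacaterol with carbachol, they were 0.82, 1.01, 2.40 and 1.17 (limma adjusted p = 0.145, 0.0405, 2.9e-10 and 0.03), and 4.8%, 3.91%, 9.27% and 8.46% of genes were called. The 2 h call was lost without replicate 1, 2, 4 or 5 (adjusted p between 0.0802 and 0.252) and without the libraries over 20% mitochondrial (0.0758), although the groups did not overlap and the exact permutation p was 0.00794. The 18 h call was lost without replicate 1, 2, 3 or 5 (adjusted p between 0.0529 and 0.168). Replicate 1 has no library in these 18 h groups, so leaving it out changed only the pooled spread and the adjustment over genes.

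Tested after the values were seen, the interaction of mometasone and indacaterol with carbachol present was -0.31 at 2 h and 0.12 at 6 h (limma adjusted p = 1 each, 0.371% and 0.209% of genes called). The 6 h sign turned with a pseudocount of 0.1 (-0.63) and without replicate 2 (-0.04). On the deposited scale the joint rise over carbachol cells was 1.82 times the sum of the single rises at 2 h and 2.92 times at 6 h, above the sum in 5 of 5 replicate numbers at both times.

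**Figure D4:**
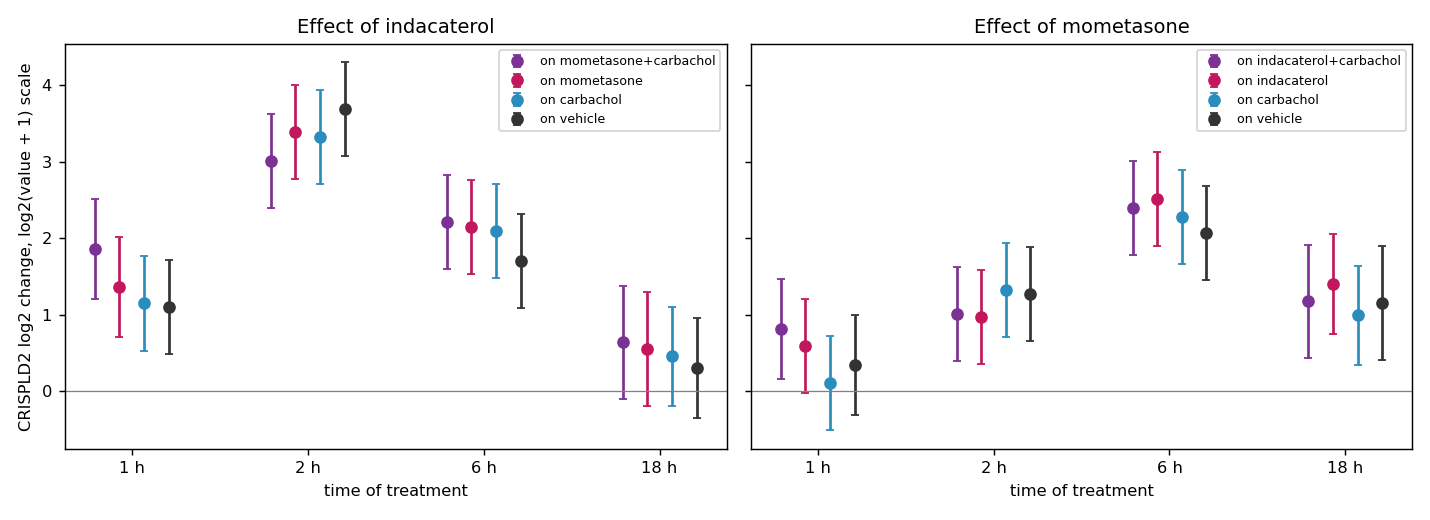
Log2 change of CRISPLD2 with indacaterol (left) and mometasone (right) on 4 backgrounds, at each time, with 95% intervals from limma on log2(value + 1). The indacaterol effect is largest at 2 h on the 3 backgrounds with another agent (3.02 to 3.39), and the mometasone effect at 6 h on all 4 (2.07 to 2.51). The 2 h indacaterol effect on vehicle (3.69) is the value for which the gene was put forward, and the 2 h mometasone effect on indacaterol shares its libraries.

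Of the 13 other members listed, all were in the deposited values and 5 passed the filter on low values, set at 5 or more libraries with 1 or above. CRISPLD1, the closest paralog by name and also secreted, averaged 10.4 over all libraries, CRISPLD2 9.49 and GLIPR2 5.10, on the deposited scale, which the authors call TPM. The order of the first pair turned with treatment: at 2 h CRISPLD2 averaged 47.1 and CRISPLD1 11.2 with both agents, and CRISPLD2 0.904 and CRISPLD1 6.40 with vehicle. CRISP1 and CRISP2, proteins of the male reproductive tract, were listed at 0 in every library.

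CRISPLD1 averaged 16.6 in indacaterol cells and 7.26 in vehicle cells at 6 h. This was a rise of 1.07 on the log2 scale, the only call among the 5 in that comparison, in which 1.74% of all genes were called. CLEC18A, a C-type lectin domain member, stood higher with indacaterol at 1 h (0.63) and at 2 h (0.74). It was the only call among the 5 at each of these times, when 1.4% and 3.91% of genes were called. CLEC18A had a median of 0.135 over the 150 libraries and a highest value of 1.70. It thus passed the filter only through its highest libraries, and nothing is read from its calls. With mometasone its log2 differences from vehicle were -0.18, 0.40, 0.36 and 0.54 at 1, 2, 6 and 18 h, none of them called. Over the 5 members the median difference at 6 h was 0.06 with mometasone, against 0.02 over all genes. GLIPR1, a membrane-associated member, fell with mometasone at 18 h by 1.22 on the log2 scale, and GLIPR1L2 rose by 0.53, where 9.1% of genes were called. GLIPR1L2 was also low, with a median of 0.595 over the libraries.

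Lists of glucocorticoid and cyclic AMP targets, drawn up with earlier results of these data known, describe the setting. Of 37 tested glucocorticoid targets other than CRISPLD2, 15, 22, 26 and 25 rose with mometasone at 1, 2, 6 and 18 h, and 0, 0, 1 and 2 fell, where 0.472%, 1.99%, 9.61% and 9.1% of all tested genes were called in either direction. Their median change at 6 h was 1.80, against 0.02 over all genes. TSC22D3 changed most at 6 h, by 5.79. FKBP5, a co-chaperone of the glucocorticoid receptor, was also highest at 6 h, with log2 differences of 0.53 (not called), 1.63, 3.37 and 2.89 at 1, 2, 6 and 18 h. With indacaterol FKBP5 stood at -0.13 at 2 h and was not called. Of the 37 genes 10, 12, 3 and 1 rose with indacaterol at 1, 2, 6 and 18 h, and 0, 0, 1 and 0 fell. Of all tested genes 1.4%, 3.91%, 1.74% and 0.202% were called with indacaterol in either direction.

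Of 26 tested cyclic AMP targets, 19, 21, 2 and 2 rose with indacaterol at 1, 2, 6 and 18 h and none fell, where 1.4%, 3.91%, 1.74% and 0.202% of all tested genes were called in either direction. Their median change at 2 h was 1.73, against 0.01 over all genes. NR4A3 changed most at 2 h, by 5.36, and was not called at 6 h, when it stood at 0.95. PDE10A was called at all 4 times, at 2.10, 3.53, 2.11 and 1.29. PER1, DUSP1, RGS2 and SGK1 are on both lists, and each rose at 2 h with mometasone alone and with indacaterol alone.

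Of 10 tested inflammatory mediators 5, 4, 2 and 1 rose with indacaterol at 1, 2, 6 and 18 h, and 0, 3, 3 and 3 fell with mometasone. Over all tested genes 1.4%, 3.91%, 1.74% and 0.202% were called with indacaterol, and 0.472%, 1.99%, 9.61% and 9.1% with mometasone. The median log2 difference with indacaterol at 2 h was 0.40, against 0.01 over all genes. IL6 averaged 59.6 in indacaterol cells, 1.02 in mometasone cells and 2.56 in vehicle cells at 1 h. With both agents it averaged 11.9 at 1 h, 2.55 at 2 h and 0.19 at 6 h, the last against 2.76 in vehicle cells. At 2 h, then, IL6 was lower and CRISPLD2 higher with both agents than with indacaterol alone (IL6 2.55 against 31.0, CRISPLD2 47.1 against 23.6).

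The glucocorticoid receptor NR3C1 averaged 26.0 in mometasone cells and 45.1 in vehicle cells at 6 h, a log2 difference of -0.76 that was not called. Among extracellular matrix genes, tested because the protein is secreted, 0, 0, 2 and 0 of 21 rose and 0, 0, 4 and 9 fell with mometasone at 1, 2, 6 and 18 h. At 6 h and 18 h, 9.61% and 9.1% of all tested genes were called in either direction. The list's median at 18 h was -0.47, against 0.04 over all genes. SPARC, a matrix glycoprotein, changed by -1.20 at 18 h, and LOXL2, a collagen cross-linking enzyme, by -1.39.

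The genes beside CRISPLD2 on chromosome 16 were looked at in the same comparisons. The 3 nearest measured genes on the left are USP10, KLHL36 and COTL1, and those on the right are ZDHHC7, KIAA0513 and GSE1, at 40062 to 248757 bases from it. With mometasone and indacaterol at 2 h their log2 differences ran between -0.41 (GSE1) and 0.13 (ZDHHC7), none called, where CRISPLD2 changed by 4.66. At 6 h KIAA0513 fell, by 0.47 with mometasone and by 0.68 with both agents, and COTL1, a protein that binds F-actin, fell by 0.52 with both agents at 18 h. No other call was made among these 6 genes for mometasone, indacaterol or both against vehicle at any of the 4 times. Of all tested genes 0.472%, 1.99%, 9.61% and 9.1% were called with mometasone at 1, 2, 6 and 18 h. The shares were 1.4%, 3.91%, 1.74% and 0.202% with indacaterol, and 2.44%, 7.65%, 17.7% and 13% with both agents. With only 6 genes, their calls are not read as differing from these shares.

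The genes whose pattern was most like that of CRISPLD2 were found by Pearson's r of the 32 group means of log2(value + 1), among 3862 tested genes whose means span at least 1. The means share libraries and treatments, so r is a description. B4GALT1, a Golgi galactosyltransferase, had the highest r, 0.968 over groups and 0.932 over the 150 libraries. It was followed by ADAMTS8, a secreted metalloprotease (0.952), MLXIP, a glucose-responsive transcription factor (0.933), TPCN2, an endolysosomal cation channel (0.931), and SH3BP5, which binds and inhibits the kinase BTK (0.928). Then came WNT4, a secreted Wnt ligand (0.919), FAM167A (0.919), NPC1, which exports cholesterol from lysosomes (0.917), SLC7A2, a transporter of cationic amino acids (0.913), and FRAT2, a positive regulator of Wnt signalling (0.910).

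CRISPLD2 spans more than any of these, 4.82 between its lowest and highest group mean, against 4.36 for WNT4 and 1.23 for MLXIP. B4GALT1 averaged 136 with both agents, 87.9 with indacaterol, 42.3 with mometasone and 31.3 with vehicle at 2 h. At 6 h it averaged 142 with both agents, 59.2 with indacaterol, 62.2 with mometasone and 29.6 with vehicle. SLC7A2 averaged 11.3 with both agents, 2.50 with indacaterol, 1.32 with mometasone and 0.84 with vehicle at 2 h. With both agents CRISPLD2 averaged less at 6 h (33.5) than at 2 h (47.1), while the means of 5 of the 10 genes were higher at 6 h. These were 32.7 at 6 h and 20.3 at 2 h for WNT4, 43.8 and 33.6 for SH3BP5, 13.95 and 11.3 for SLC7A2, 6.40 and 5.17 for ADAMTS8, and 142 and 136 for B4GALT1.

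**Figure D5:**
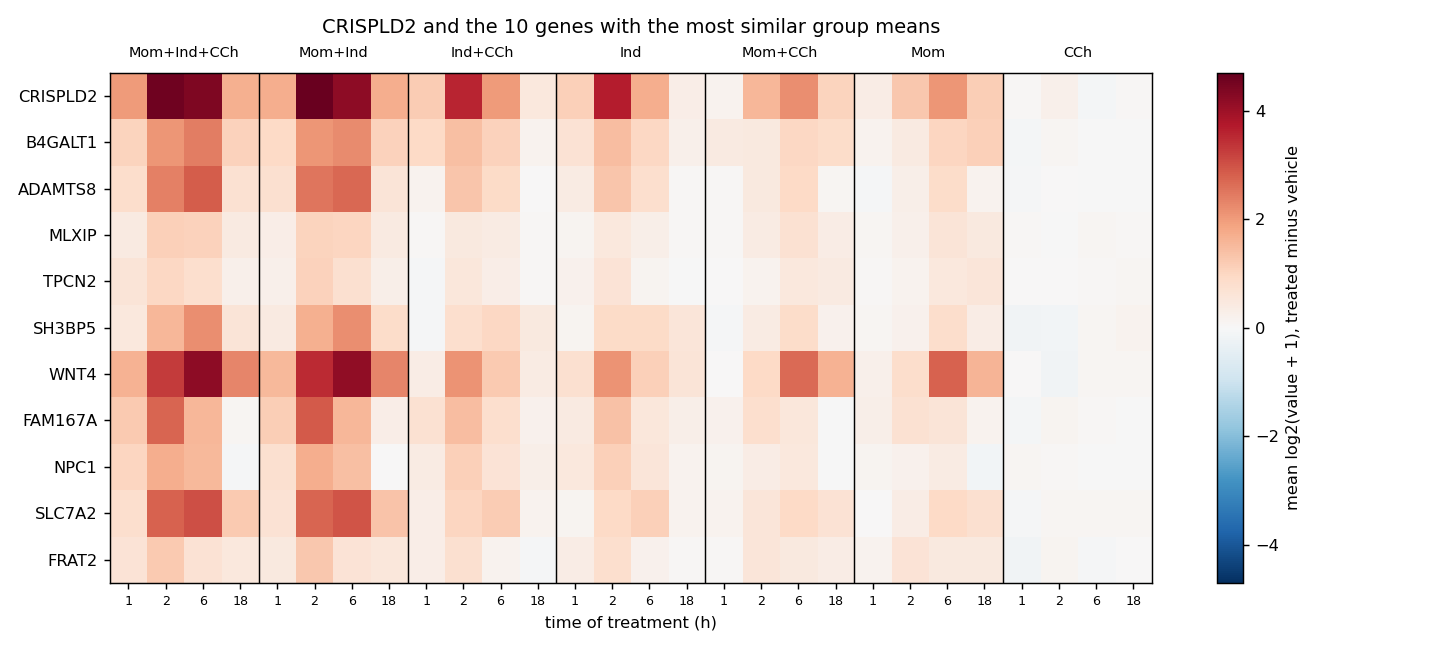
Mean log2(value + 1) of each treated group minus vehicle at the same time, for CRISPLD2 and the 10 genes with the most similar group means (rows, by r), by treatment and time in h (columns). With both agents CRISPLD2 reaches 4.66 at 2 h and WNT4 4.15 at 6 h, and the carbachol columns stay near 0.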

How the data were processed

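RNA of BEAS-2B cells was sequenced from TruSeq libraries on a NextSeq instrument with 2 kits, per the labels' protocols. Named in the submitters' processing notes are STAR 2.4.2a, bcl2fastq 2.17.1.14 and the build GRCh38. For the quantifier, its annotation and strand use, nothing is given in the sources used here. The values deposited by the authors are called TPM, but column sums vary, so they were taken as a normalised signal and not as counts. The design had assumed TPM, and the test on log2(value + 1) fits either. 4 columns marked as excluded by the authors and 6 columns headed with a time no label gives were left out. These name replicate 1 of the 6 treatments that have no replicate 1 at 18 h and may be those samples, so the 18 h groups could be 1 library larger.

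The 14827 genes at 1 or above in 5 or more libraries were fitted with limma 3.58.1 in R 4.3.3 on log2(value + 1), with 1 coefficient per group (32) and a variance trend. P-values were adjusted by Benjamini-Hochberg within each comparison over all tested genes, with calls below 0.05. Exact permutation tests were two-sided, on the difference of group means of log2(value + 1). The fit was checked on simulated data. The comparisons of 2 groups share control libraries. Named genes were CRISPLD2, the 10 most similar genes, the 3 nearest measured genes on each side, and up to 3 members per list with the largest changes, plus some named after their values were seen. The gene, the lists and the tests were chosen with earlier results of these data known.

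Same-numbered replicates deviated together (every correlation over 0.1) in some comparisons and not in others. Where they did, blocking on the number changed 1 call, that of the mometasone effect on indacaterol with carbachol at 6 h less 2 h. There they did so within each time, while the block was shared over the times, across which these libraries were not checked. Alternatives were a pseudocount of 0.1, no filter, each time or only the compared groups in the fit, a replicate block, median-ratio rescaling, robust variance estimation, no libraries over 20% mitochondrial, each replicate left out, and the permutation test.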

Additional observations from a re-analysis of the deposited data

Results flagged for a closer look

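The effect of mometasone on CRISPLD2 differed between times, by a test of the difference itself. It was larger at 6 h than at 1 h by 1.73 on the log2(value + 1) scale (limma, adjusted p = 0.011), a call lost without replicate 1 (1.77, adjusted p = 0.0702) or replicate 3 (1.51, 0.0826). Mometasone libraries had 4.93 to 9.37 at 6 h and 0.72 to 1.80 at 1 h, while vehicle libraries had 0.53 to 1.23 at 6 h and 0.44 to 1.06 at 1 h. A test for a single outlying library marked 0 of the 30 groups of 4 or 5 libraries, but it can hardly mark a pair that is high together, as replicates 2 and 4 are at 1 h.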

How the results depend on the processing

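Of 779 values under alternatives, 715 were marked as unchanged. For tested comparisons this means the same direction and the same side of the threshold. For 2 h values given as a description it means the same direction and a shift below the residual SD (0.497 on the log2 scale). The count also holds the overlaps of the lists of most similar genes. Rescaling by median ratios and robust variance estimation changed no call of CRISPLD2. The limits are the unknown depth, groups of 3 at 18 h, and a spread pooled over times that includes the scattered 1 h libraries. The cause of the changes below was not tested.

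With a pseudocount of 0.1, indacaterol against vehicle at 2 h was 4.58, the interaction was -0.89 at 2 h and -0.18 at 6 h (-0.63 with carbachol present), and mometasone added to indacaterol with carbachol at 2 h was 1.04 (adjusted p = 0.211). Without the filter the calls lost were indacaterol against vehicle at 1 h (1.11, adjusted p = 0.0513), mometasone added to indacaterol with carbachol at 2 h (1.01, 0.054), and at 18 h mometasone against vehicle (1.16, 0.0503) and mometasone added to carbachol (0.99, 0.0533).

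At 1 h, fits of that time alone or of the compared groups lost the calls of indacaterol against vehicle (1.11, adjusted p = 1 in both), both agents against vehicle (1.70, 0.144 and 0.616), and indacaterol added to mometasone (1.36, 0.79 and 0.979), to carbachol (1.15, 0.248 and 0.29) and to mometasone with carbachol (1.86, 0.137 and 0.358). Fits of the compared groups gave calls to the 6 h less 2 h changes of 1.39 and -1.24 that were added after the values were seen.

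The replicate block gave a call to mometasone added to indacaterol with carbachol at 1 h (0.71, adjusted p = 0.0134), where the numbers do not pair the libraries. It also gave a call to the change of that effect between 2 h and 6 h (1.39, 0.0281), where they pair them within each time. It changed no other call. Without the 6 libraries over 20% mitochondrial, carbachol against vehicle at 1 h was -0.01 and mometasone added to indacaterol with carbachol at 2 h was 1.02 (adjusted p = 0.0758). By exact permutation, indacaterol added to mometasone at 1 h was not called (1.36, p = 0.127), while at 18 h indacaterol added to mometasone, to carbachol and to mometasone with carbachol was (0.55, 0.45 and 0.64, p = 0.0286, 0.0238 and 0.0286).

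Leaving out each replicate number in turn gave 0.81 to 1.37 for indacaterol against vehicle at 1 h, 1.01 to 1.61 for indacaterol added to mometasone at 1 h, and 0.88 to 1.41 for it added to carbachol at 1 h. Mometasone added to indacaterol with carbachol gave 0.66 to 1.15 at 1 h, with a call without replicate 3 (adjusted p = 0.0288), 0.95 to 1.06 at 2 h and 1.10 to 1.27 at 18 h. Mometasone against vehicle gave 1.19 to 1.36 at 2 h and 1.08 to 1.24 at 18 h, and added to carbachol 0.91 to 1.07 at 18 h. The change of the mometasone effect between 1 h and 6 h gave 1.51 to 1.86 and lost its call without replicate 1 or 3. Signs turned, with no call in any case, for carbachol against vehicle at 1 h (-0.03 to 0.13; -0.01 without replicate 1) and at 18 h (-0.01 to 0.13), vehicle at 18 h against 1 h (-0.16 to 0.09; 0.07 without replicate 4), and the interaction with carbachol present at 6 h (-0.04 to 0.20). Of the 10 genes most like CRISPLD2, 8 were among the 10 with a pseudocount of 0.1 and 9 after rescaling.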
